A study of Arabidopsis thaliana with 6 samples.

Results

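Lignin is the phenolic polymer that stiffens the walls of xylem vessels and fibres and seals the Casparian strip of roots. The genes examined here are 34 Arabidopsis loci, 19 for enzymes of the phenylpropanoid and monolignol route, which runs from phenylalanine ammonia-lyase (PAL) to cinnamyl alcohol dehydrogenase (CAD), and 15 for laccases, the copper oxidases that can couple monolignols in the wall. LAC8 and LAC9 were not part of the list. Members were taken by locus through the annotation of the ATH1 array, and only 3 of the 34 loci, HCT (AT5G48930), CCR2 (AT1G80820) and LAC16 (AT5G58910), are given a probe set there. For the other 31 loci no probe set is named in the tables used, so they were not analysed here, and nothing below describes the pathway as a whole.

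RNA came from whole 10-day-old Col-0 seedlings grown under constant light, 3 arrays of the frb1-1 mutant and 3 of wild-type FRB1, and the labels call the replicates biological. Both genotypes had 4 days of stratification and grew at 21 °C under light of 200 µE. FRB1 is a Golgi protein needed for cell adhesion in seedlings. In frb1-1 a T-DNA lies upstream of the FRB1 coding region (AT5G01100), and the study takes this allele as probably only a partial loss of function; the only allele on these arrays is frb1-1. No probe set is named for FRB1, so the labels were not checked against its signal.

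A probe set of the array is a set of short oligonucleotides that report on 1 gene or, for some probe sets, on several. Its signal intensity is given here on a linear scale. Array medians ran from 154 to 199. Of 22746 probe sets without controls, the 15218 whose log2 signal averaged 6 or more (a linear signal of 64) were compared with limma, whose error (SE below) borrows from the spread of all of them, with Benjamini-Hochberg adjustment of the p-values and a threshold of 0.05. With 3 arrays against 3, an exact two-sided permutation test of a single gene cannot give a p below 0.10. Of the markers listed for the tissue, RCA of leaves, EXPA7 of root hairs and PAP85 of seeds have a named probe set, 1 of 5 genes in each list. RCA had 16260 to 23640 in frb1-1 and 22730 to 31290 in the wild type, and EXPA7 had 338 to 482 in frb1-1 and 318 to 395 in the wild type. PAP85, a seed storage protein gene, rose in frb1-1 (280 to 359, against 47.4 to 115 in the wild type, adjusted p = 0.0260 from limma). None of the 7 listed Casparian strip genes has a named probe set. In RNA of whole seedlings, fewer cells of a type and less RNA per cell cannot be told apart.

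The route begins when PAL removes ammonia from phenylalanine, after which cinnamate 4-hydroxylase (C4H) and 4-coumarate:CoA ligase (4CL) yield p-coumaroyl-CoA. None of the 4 PAL loci, the C4H locus or the 4 loci of 4CL has a named probe set. HCT, the acyltransferase of the next step, joins p-coumaroyl-CoA to shikimate. C3H, which acts on its product, and caffeoyl shikimate esterase (CSE), which acts after C3H, have no named probe set either. The O-methyltransferases CCoAOMT1 and COMT1 and ferulate 5-hydroxylase, which set the methoxyl pattern of the monolignols, have none. Of the 4 reductase loci at the end of the route, CCR2 alone has one.

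HCT was far above the minimum signal on all 6 arrays. It had 3055, 3459 and 2656 on frb1-1 replicates 1, 2 and 3, against 3686, 3543 and 4339 on wild-type replicates 1, 2 and 3. Each frb1-1 array lay below each wild-type array, by a narrow margin between replicate 2 of the genotypes. The mean was 3057 ± 401 in frb1-1 and 3856 ± 424 in the wild type (SD, n = 3 each), a ratio of 0.793. On the log2 scale the fold change was -0.34 (SE 0.19, 95% interval -0.76 to 0.09), at an adjusted p = 0.996 from limma, and the exact permutation p was 0.10, the smallest that this design can give. The difference therefore did not pass the test, and on the linear scale the interval runs from 0.589 to 1.06 times the wild type. Groups that do not overlap were seen for 10.9% of all tested probe sets, 4.65% with frb1-1 lower, so that HCT is 1 of 707 probe sets of that kind. With both replicate-3 arrays left out, which was decided once the values were known, the log2 fold change of HCT was -0.15. Wild-type replicate 3 was its brightest array, at 1.20 times the mean of the other wild-type arrays. Its dimmest was frb1-1 replicate 3, at 0.816 times the mean of the other frb1-1 arrays. The log2 fold change was -0.25 without wild-type replicate 3 alone and -0.24 without frb1-1 replicate 3 alone. The leaf gene RCA also had a negative log2 fold change, -0.41, with overlapping groups (adjusted p = 0.889 from limma), and its part in the HCT difference was not tested.

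CCR2 encodes a cinnamoyl-CoA reductase, which turns hydroxycinnamoyl-CoA esters into the aldehydes of the monolignol route and in Arabidopsis is better known from responses to pathogens than from the lignification of stems. Its signals were 77.2, 59.7 and 60.4 on frb1-1 replicates 1, 2 and 3, against 68.1, 72.9 and 94.8 on wild-type replicates 1, 2 and 3. The groups overlapped, and 2 of the 6 arrays, both of frb1-1, were under 64. The mean was 65.8 ± 9.89 in frb1-1 and 78.6 ± 14.2 in the wild type (SD, n = 3 each). The log2 fold change was -0.25 (SE 0.44, 95% interval -1.23 to 0.72, adjusted p = 1.0 from limma). That interval spans 0.427 to 1.65 times the wild-type signal, so neither a fall nor a rise within that range can be excluded at this brightness. Wild-type replicate 3 was the brightest array of CCR2 too, at 1.34 times the mean of the other wild-type arrays, and without both replicate-3 arrays the log2 fold change was -0.05.

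LAC16 is the only laccase of the 15 with a named probe set, and it was dim on all 6 arrays. Its signals were 26.8, 53.6 and 4.43 on frb1-1 replicates 1, 2 and 3, against 9.82, 52.3 and 13.5 on wild-type replicates 1, 2 and 3. Replicate 2 was the brightest array of both genotypes, and the groups overlapped widely. LAC16 fell under the minimum signal and was not tested. The mean difference was -0.04 on the log2 scale, and a fit with no filter gave it a standard error of 1.07. The laccases of xylem and fibres, such as LAC4 and LAC17, and LAC15 of the seed coat were not analysed here.

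**Figure D1:**
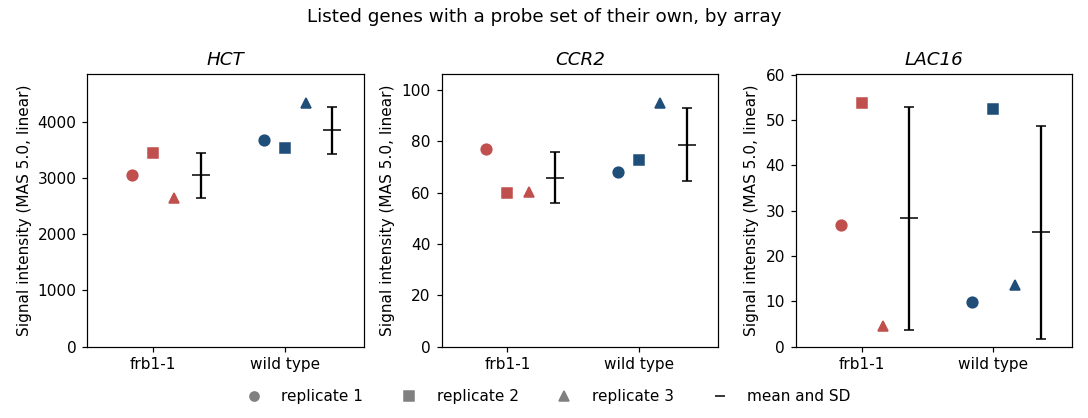
Signal intensity of HCT, CCR2 and LAC16 on a linear scale from 0, with 3 frb1-1 arrays (red) left of 3 wild-type arrays (blue), replicate number by marker shape, and the mean and SD in black. HCT is the only gene of the 3 whose genotypes do not overlap, with 2656 to 3459 in frb1-1 and 3543 to 4339 in the wild type.

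Of the 2 tested members none rose or fell in frb1-1 past the threshold of limma, and neither had an unadjusted p under 0.05. Over all tested probe sets 0.368% were called, 0.276% higher and 0.0920% lower. The median log2 fold change of the 2 members was -0.30, against 0.01 over all tested probe sets. Over the fits without 1 array the median of the 2 ran from -0.36 to -0.18, the latter without wild-type replicate 3. It was -0.10 without both replicate-3 arrays.

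Genes around the route were taken from lists of 77 loci, of which 19 have a named probe set of their own and 14 were tested. One of these, PRX71, rose in frb1-1 and none fell. Their log2 fold changes were split between 7 positive and 7 negative values, with a median of 0.00. None of the 18 listed transcription factors of lignin and secondary walls, among them MYB58, MYB63 and the NST and VND genes, has a named probe set, nor do the 4 flavonoid genes that draw on the same p-coumaroyl-CoA, or LAC8 and LAC9.

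Class III peroxidases, like laccases, oxidize monolignols to radicals in the wall. Of 10 peroxidases linked to lignin, 7 have a named probe set, 6 were tested, and PRX71 (AT5G64120) rose. It had 4888, 5077 and 3528 on frb1-1 replicates 1, 2 and 3, against 1388, 2055 and 1403 on wild-type replicates 1, 2 and 3. Its lowest frb1-1 array was well above its highest wild-type array. The mean signal was 4497 ± 845 in frb1-1 and 1615 ± 381 in the wild type (SD, n = 3 each), 2.78 times as high in frb1-1. The log2 fold change was 1.48 (SE 0.23, 95% interval 0.98 to 1.99, adjusted p = 0.0189 from limma). The call was lost without frb1-1 replicate 1 (adjusted p = 0.139), frb1-1 replicate 2 (0.123) or wild-type replicate 1 (0.115), and without the mean-variance trend (0.102). The log2 fold change was 1.42, 1.39, 1.39 and 1.48 in these 4 fits, and 1.39 to 1.67 over all fits without 1 array. PRX71 stands in the list of changed genes that the study chose on these arrays, so that its rise here is not independent evidence of its direction. The seed gene PAP85 rose on the same arrays, with a mean signal 4.06 times as high in frb1-1, and its part in the rise of PRX71 was not tested.

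The other tested peroxidases overlapped between the genotypes. PRX72, required for normal stem lignin, had 338, 493 and 694 on the frb1-1 arrays and 458, 960 and 694 on the wild-type arrays. Its log2 fold change was -0.47 (SE 0.32), the lowest of the list. PRX66, a xylem peroxidase, had 1230, 824 and 880 in frb1-1 and 612, 1002 and 716 in the wild type, with a log2 fold change of 0.34 (SE 0.25). PRX25 had -0.31, PRX47 had 0.05 and PRX17 had 0.24 on the same scale. Each of these 5 had an unadjusted p above 0.05, and PRX52 was under the minimum signal.

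Monolignols can be stored as glucosides, and sinapate esters shield the leaves of Arabidopsis from ultraviolet light. Of 8 listed genes of these branches 5 have a named probe set, 4 were tested and none passed the test. UGT72E1, a glucosyltransferase that accepts coniferyl aldehyde, had 1583, 1734 and 2424 in frb1-1 and 1276, 1812 and 1794 in the wild type, a log2 fold change of 0.23 (SE 0.24). UGT72E2, which glucosylates coniferyl and sinapyl alcohol, had 586, 590 and 429 in frb1-1 and 685, 645 and 552 in the wild type, a log2 fold change of -0.24 (SE 0.22). The genotypes overlapped for both genes. UGT72B1 had a log2 fold change of -0.07 (SE 0.21).

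REF1, an aldehyde dehydrogenase that makes ferulic and sinapic acid, had 1643, 1863 and 738 on frb1-1 replicates 1, 2 and 3, against 2114, 2442 and 945 on wild-type replicates 1, 2 and 3. The genotypes overlapped, and replicate 3 was the lowest array of each, at 0.421 times the mean of replicates 1 and 2 in frb1-1 and 0.415 times in the wild type. The log2 fold change was -0.37 (SE 0.40, adjusted p = 1.0 from limma), the furthest from 0 of the 4 tested genes of these branches. It was -0.79 without wild-type replicate 3 and 0.045 without frb1-1 replicate 3. Replicate 3 was the lowest array in both genotypes for 7 of the 32 tested genes of all lists (21.9%), close to the 22.2% over all tested probe sets. Both ratios were under 0.5, as for REF1, in 1.52% of all tested probe sets. UGT72E3, a further monolignol glucosyltransferase, was under the minimum signal, with 70.8, 118 and 7.85 in frb1-1 and 62.6, 112 and 11.6 in the wild type.

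IRX10 extends the xylan backbone of secondary walls. It is the only gene with a named probe set among 10 listed for cellulose and xylan of secondary walls. It had 253, 273 and 434 on the frb1-1 arrays and 199, 284 and 272 on the wild-type arrays. Its log2 fold change was 0.32 (SE 0.28), and the groups overlapped. Among 18 homologues of CAD, CCR and CCoAOMT1, 6 have a named probe set and 3 were tested. AT2G02400, of the CCR family, was nearly level, with 565, 531 and 518 in frb1-1 and 550, 557 and 554 in the wild type, a log2 fold change of -0.04 (SE 0.20, adjusted p = 1.0 from limma). AT1G24735 and AT3G62000, both of the CCoAOMT family, had log2 fold changes of 0.40 (SE 0.50) and -0.16 (SE 0.32). AT3G62000 had 282, 230 and 156 in frb1-1 and 277, 307 and 167 in the wild type.

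Ligases that resemble 4CL and dirigent proteins, which steer the coupling of monolignol radicals, were added as lists once the annotation had been seen. Their own signals had not been looked up, but earlier results of these data were known by then. Of 9 ligase genes 5 were tested and none passed, with log2 fold changes from -0.26 for AT5G63380 to 0.25. OPCL1, which activates jasmonate precursors, had 0.23 (SE 0.27), and AT4G05160 had 0.20 (SE 0.26). Of 22 dirigent genes 14 have a named probe set of their own. AT5G42500 and AT5G42510 have only a probe set given to several genes, which was not used for them. Of the 14, 11 were tested. None passed the threshold of limma (2 with an unadjusted p under 0.05, where all tested probe sets gave 5.96%).

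Among the tested dirigent genes 9 had negative and 2 had positive log2 fold changes, with a median of -0.20, against 0.01 over all tested probe sets. AT3G13650 had 301, 470 and 332 on the frb1-1 arrays, against 555, 541 and 742 on the wild-type arrays, a log2 fold change of -0.75 (SE 0.25, adjusted p = 0.557 from limma). AT4G11190 had 2094, 2750 and 3120 on the frb1-1 arrays, against 3507, 3182 and 4359 on the wild-type arrays, a log2 fold change of -0.48 (SE 0.22, adjusted p = 0.836 from limma). In both genes every frb1-1 array lay below every wild-type array, as in 4.65% of all tested probe sets. Groups that did not overlap in either direction made up 10.9%. AT4G38700 had -0.60 (SE 0.35) with overlapping groups.

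**Figure D2:**
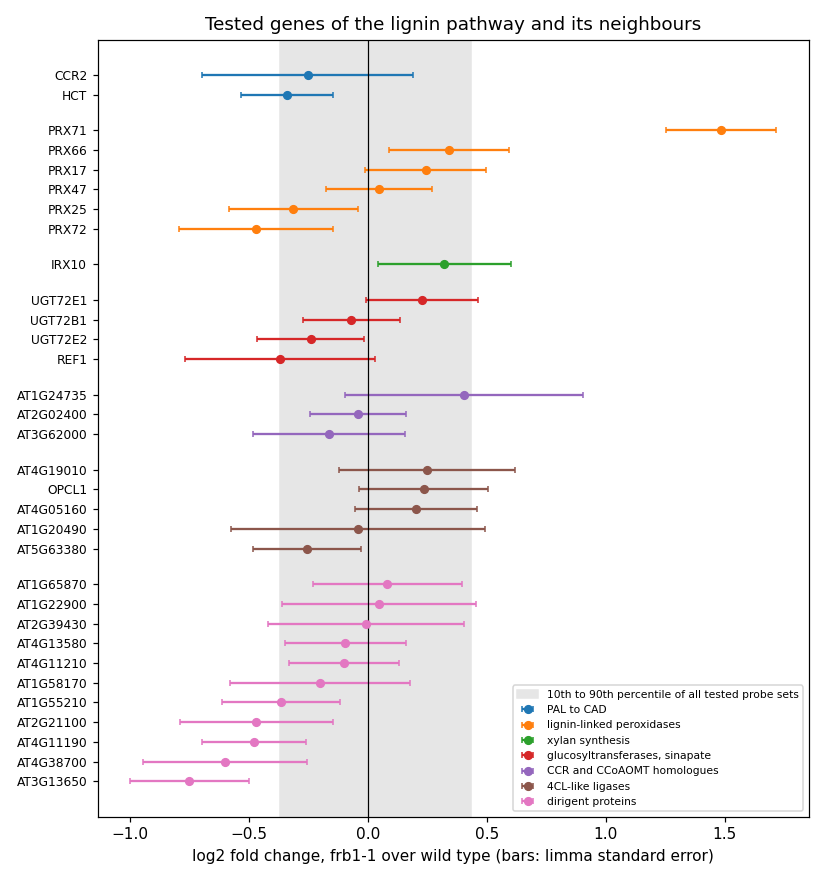
log2 fold change, frb1-1 over wild type, of the 32 tested genes of the lignin route, the lists around it and the 2 added lists, with limma standard errors (SE) as bars and a grey band for the 10th to 90th percentile of all tested probe sets. PRX71 at 1.48 is the only gene that passed the test, and HCT (-0.34) and CCR2 (-0.25) lie inside the band.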

How the data were processed

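The authors computed the deposited signal intensities with MAS 5.0, each array at a target of 500, and their table holds all 22810 probe sets, although the study dropped those called absent. Detection calls were not used here. The 64 control probe sets were left out, and log2 signals were compared with limma (version 3.58.1, R 4.3.3; lmFit and eBayes with a trend of variance on the mean signal), neither rescaled nor given a pseudocount, over probe sets averaging a log2 signal of 6 or more. The script was tested on simulated data with independent noise and with changes larger than those of HCT and CCR2. That test therefore does not bear on changes of their size. The number of arrays limits the precision.

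The annotation gives 1 gene to 13513 probe sets, several to 503 and none to 8730. Gene IDs were matched to loci through RefSeq (TAIR10.1), for 13436 of the 13513. Members and lists were chosen with earlier results of these data known. All members given a probe set by the annotation are named. From each other list, those named are the genes past the threshold or otherwise the 3 with the smallest p. Other tested peroxidases, UGT72B1, UGT72E3 and PRX52 are named after their values were seen. No sequences of these genes were used here.

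Alternatives were scaling by quantiles or medians, dropping the filter, a minimum of 7 or of 6 on every array, a replicate block, a pseudocount of 32, no mean-variance trend and each array left out in turn. The omission of both replicate-3 arrays was an addition chosen after seeing the data.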

Additional observations from a re-analysis of the deposited data

How the results depend on the processing

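HCT and CCR2 stayed negative and short of the threshold under every alternative in which they were tested, with log2 fold changes from -0.43 to -0.24 and from -0.37 to -0.11 without 1 array and of -0.15 and -0.054 without both replicate-3 arrays, and none of the listed lignin and laccase genes was called under any alternative. CCR2 was too dim to be tested at a minimum of 7 or with a minimum on every array. Of the genes in the lists around the route, 1 was higher with all arrays and 0 to 1 without 1 array, and 0 without the mean-variance trend. Same-numbered arrays of the genotypes deviated together for replicates 2 and 3 (r = 0.280 and 0.325 over probe sets) and hardly for replicate 1 (0.0413). Arrays of unlike number had r from -0.309 to 0.117. The labels state no pairing and the main fit has no replicate term, so any effect shared by same-numbered arrays adds to its standard errors. With the replicate number as a block 107 probe sets were higher and 31 lower, against 42 and 14. In that fit HCT had an adjusted p of 0.706 and PRX71 of 0.00106 from limma. The standard error of REF1 was 0.19 with the block, against 0.40 in the main fit. Without both replicate-3 arrays, 109 were higher and 28 lower. Without 1 array 11 to 66 were higher and 5 to 16 lower. Without the mean-variance trend 19 were higher and 9 lower, and 9 were lower at a minimum of 7 and 6 with a minimum on every array. In the added lists of ligase and dirigent genes, only the tested genes named above were followed through the alternatives. Among the genes followed, the log2 fold changes of 5, none of them called, turned sign. These were PRX47 (-0.10 to 0.17 without 1 array), UGT72B1 (-0.20 to 0.014), REF1 (-0.79 to 0.045), AT3G62000 (-0.43 to 0.074) and AT4G05160 (-0.087 to 0.38, and -0.089 without both replicate-3 arrays). The cause was not tested. Dim signals limit CCR2 and LAC16.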
